A study of Mus musculus with 9 samples.

Results

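Complex I (NADH:ubiquinone oxidoreductase) is the entry point of the respiratory chain, and the genes described here are its nuclear subunits and assembly factors in mouse heart. Members were all rows of the count table whose symbol starts with Nduf, plus 1810043H04Rik, the older symbol of Ndufaf8. This took 46 of 23457 rows, of which 7 encode core subunits, 29 accessory subunits and 8 assembly factors. Ndufa4, now assigned to cytochrome oxidase, and its relative Ndufa4l2 were kept apart as a pair. Of the 46 members, 45 passed the filter on low counts, and Ndufs5 had no counted read in any heart.

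The libraries were polyadenylated RNA of 9 adult hearts on a C57BL/6J background, each from 1 heart, with 5 wild-type (WT) and 4 germline Parkin knockout (KO) hearts. No further allele, treatment, sex or exact age is given in the labels. RNA came from frozen ventricular apices according to the protocol, while the tissue field reads whole heart. The knockout is a germline one, so every cell of the heart carries it, and the labels do not describe the allele. The hearts are called labelled knockouts below, and every direction rests on that label. The study itself was mainly on Drosophila hearts, with the mouse hearts as an adjunct, and the comparison asks which heart transcripts differ with the genotype.

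Complex I passes electrons from NADH to ubiquinone and pumps protons across the inner mitochondrial membrane. It is L-shaped. The matrix arm holds an NADH-binding N module and a quinone-reducing Q module, and the membrane arm holds the proton channels. Core subunits are conserved from bacteria and carry the redox and pumping chemistry, with some encoded in the nucleus and the rest in mitochondrial DNA. Accessory subunits surround the core and are needed for stability, and assembly factors bind intermediates but leave the finished enzyme. Ventricular muscle, which depends on oxidative phosphorylation, is among the tissues richest in it.

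Assigned reads per heart ranged from 4415183 to 20827699, and reads of nuclear genes from 1845431 in WT heart 2 to 14088622 in KO heart 1. Mitochondrially encoded genes took 32.6% to 58.2% of assigned reads in WT hearts and 10.04% to 15.4% in the labelled knockouts. Levels are given as CPM, read counts scaled to a common library size. The library sizes carry TMM factors, which discount a few very abundant genes. Differences are log2 fold changes of KO over WT ± standard error from edgeR's quasi-likelihood test, with Benjamini-Hochberg adjustment over all 12640 tested genes. A gene "rose" or "fell" where its adjusted p was under 0.05. Of all tested genes 51.4% passed, and fold changes followed base composition in these libraries. A second value, with each heart's trends against transcript GC content and length removed, is therefore printed for each named gene whose call it changed, and for others where it moved the size.

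Heart markers matched the label. Summed cardiomyocyte markers stood at 57202 to 64864 CPM in WT and 66668 to 76820 in KO hearts, and 3 atrial markers at 1.39 to 3.82 and 1.05 to 4.37 CPM. Ventricular Myl2 and Myl3 summed to 6763 to 8288 CPM in WT and 9498 to 11115 in KO hearts. Endothelial markers summed to 607 to 737 and 478 to 563 CPM, fibroblast markers to 415 to 543 and 401 to 582, mural markers to 440.1 to 629 and 532 to 807, and immune markers to 38.8 to 58.6 and 43.5 to 67.5. Skeletal muscle markers summed to 0.843 to 5.22 CPM in WT and 9.51 to 22.3 in KO hearts. Of 3 erythroid markers Hbb-b1 and Hba-a1 were at 0 in all hearts. The erythroid sum of 10.7 to 20.5 and 7.87 to 19.4 CPM was therefore Alas2 alone. Whether those zeros mean absent transcripts was not tested. Cardiomyocyte, ventricular and skeletal muscle sums were higher in every KO heart and the endothelial sum lower. Within these lists 2 of 7 cardiomyocyte markers rose and 2 fell, 1 of 2 ventricular markers rose and 2 of 4 endothelial markers fell, so the sums do not stand for every marker. Their part in the complex I results was not tested. In bulk tissue, fewer cells of a type and less RNA per cell cannot be told apart.

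Nuclear complex I transcripts stood mostly higher in the labelled knockouts. Of 45 tested members, 24 rose and 4 fell, where 26.2% of all tested genes rose and 25.2% fell. The median log2 fold change was 0.54, against -0.0059 over all genes. In 23 members every KO heart lay above every WT heart and in 2 every KO heart lay below, where 22.3% and 19.3% of all tested genes were so separated. Together the members took 0.943% to 1.08% of nuclear reads in WT hearts and 1.23% to 1.33% in KO hearts, with no overlap between the groups.

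By class, of 7 core subunits 4 rose and 1 fell (median 0.57), of 28 tested accessory subunits 17 rose and 2 fell (median 0.68), and of 8 assembly factors 3 rose and 1 fell (median -0.14). With GC and length trends removed, 2 core subunits rose and none fell, 16 accessory subunits rose and 7 fell, and 2 assembly factors rose and 1 fell. Of all tested genes 26.2% rose and 25.2% fell, and 18.5% and 19.4% did so with the trends removed. No test of the difference between classes was made. Summed core CPM ran from 1599 to 2017 in WT and from 2373 to 2627 in KO hearts, and summed accessory CPM from 3748 to 4311 and from 5564 to 6023. Neither sum overlapped between genotypes. The ratio of the accessory to the core sum did overlap, at 2.14 to 2.36 in WT hearts, at 2.19 to 2.25 in KO hearts 1 to 3 and at 2.54 in KO heart 4. Assembly factors amounted to 42.6 to 58.7 CPM per 1000 CPM of core subunits in WT and to 35.1 to 41.2 in KO hearts. On the deposited counts their share beside the core was thus lower in every labelled knockout, by a narrow gap. The ratio was not taken with GC and length trends removed.

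**Figure D1:**
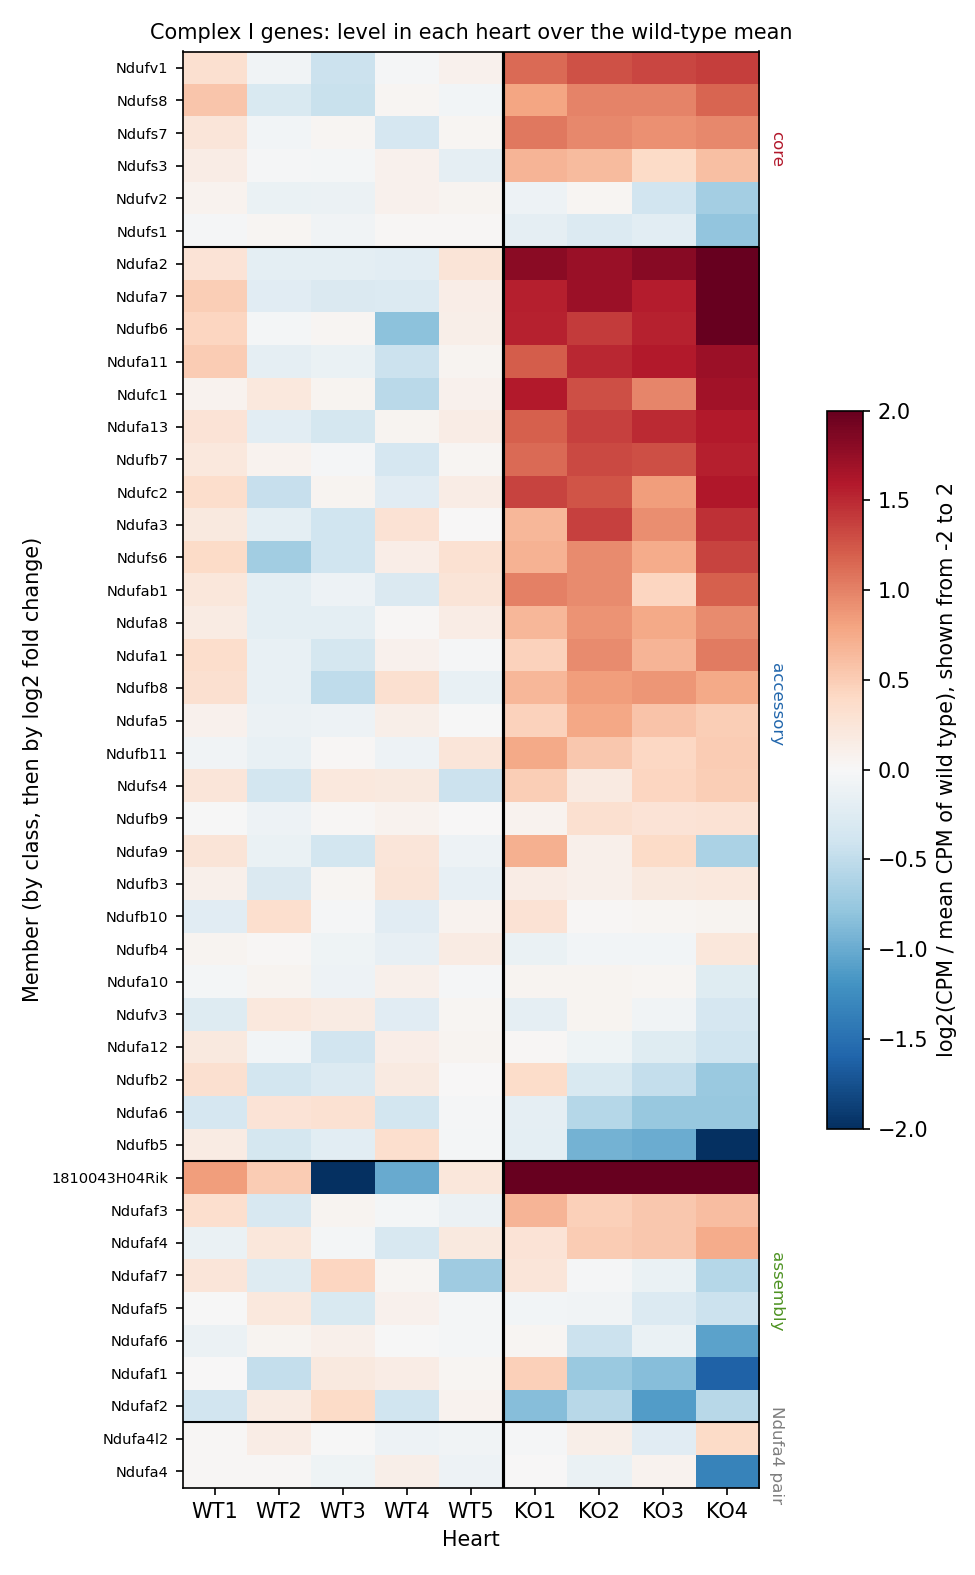
Heat map of 44 tested members (rows, by class and then by log2 fold change) in each of the 9 hearts (columns), as log2 of CPM over the mean CPM of wild type, with colours limited to -2 to 2. Ndufa2 is at least 139 CPM in every KO heart and at most 50.3 in every WT heart, while Ndufa4 and Ndufb5 are lowest in KO heart 4.

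With GC and length trends removed, 20 members rose and 9 fell, where 18.5% of 12548 genes rose and 19.4% fell. Of the 24 members that rose, 18 did so in both fits and 6 lost the call, namely Ndufaf3, Ndufb11, Ndufs3, Ndufs6, Ndufs7 and Ndufs8. Ndufb3 and Ndufv2 passed as higher and Ndufa12, Ndufa4l2, Ndufb10, Ndufb2, Ndufb9 and Ndufv3 as lower after the removal alone. The class medians became 0.17 for core subunits, 0.41 for accessory subunits and 0.019 for assembly factors. No member passed in opposite directions in the 2 fits.

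The core subunits that rose were 4, led by the subunit that binds NADH. Ndufv1 carries the flavin that accepts electrons from NADH and lies at chr19:4007499-4012755 (mm10/GRCm38). It stood at 304, 232, 179.8, 238 and 258 CPM in WT hearts 1 to 5 and at 531, 587, 611 and 634 in KO hearts 1 to 4. Every KO heart was above every WT heart, by a wide margin. The log2 fold change was 1.28 ± 0.14 (edgeR adjusted p = 1.2e-05), and was at 0.75 after trend removal (adjusted p = 3.0e-04), and Ndufv1 was the only core subunit to rise in both fits.

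The Q module subunits that carry or border the last redox steps came next. Ndufs7, which holds the terminal iron-sulfur cluster beside the quinone site, was at 159 to 238 CPM in WT hearts, with a median of 205, and at 418, 389, 376 and 390.5 in KO hearts 1 to 4. Ndufs8, which carries further iron-sulfur clusters, was at 206, 114, 103, 146 and 135 CPM in WT and at 243, 279, 280.5 and 316 in KO hearts. In both genes the lowest KO heart exceeded the highest WT heart. Their fold changes were 0.97 ± 0.13 (edgeR adjusted p = 3.5e-05) and 0.98 ± 0.17 (adjusted p = 3.3e-04). Trend removal left Ndufs7 at 0.068 (adjusted p = 0.684) and Ndufs8 at 0.29 (adjusted p = 0.119). These are among the most GC-rich members, with transcripts of 60.7% and 57.8% GC.

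Ndufs3, a Q module core subunit without a cofactor, was at 107, 95.7, 94.8, 104 and 85.7 CPM in WT and at 156, 150.5, 126 and 148 in KO hearts. It rose by 0.57 ± 0.12 (edgeR adjusted p = 9.0e-04), and was at 0.17 after trend removal (adjusted p = 0.217). The groups did not overlap. A GENCODE transcript of another gene, Gm12251, matches Ndufs3 at 98.6% identity over 792 bases, so its reads may be split or lost and its level is uncertain.

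Ndufv2 and Ndufs1 did not rise on the deposited counts. Ndufv2, an iron-sulfur partner of Ndufv1 in the N module, was at 259, 224, 228, 262 and 256 CPM in WT and 228, 251, 189 and 153 in KO hearts. Its groups overlapped, and its fold change was -0.26 ± 0.14 (adjusted p = 0.137). After trend removal Ndufv2 passed as higher, at 0.34 (adjusted p = 0.042).

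Ndufs1, the largest subunit of the N module and a carrier of several iron-sulfur clusters, fell. Its WT values of 309, 322, 298, 317 and 319 CPM were the tightest of the core subunits described, and KO hearts stood at 275, 258, 270.4 and 181. All KO hearts were below all WT hearts, with KO heart 4 far below the others. The fold change of -0.35 ± 0.13 only just passed (edgeR adjusted p = 0.040), reached -0.22 without KO heart 4 (adjusted p = 0.116), and turned to 0.085 with the trends removed (adjusted p = 0.546). Leaving out WT heart 2, 4 or 5, or KO heart 2 or 3, also lost the call (adjusted p from 0.0504 to 0.066). Exons of Ndufs1 overlap the counted gene Eef1b2 on the opposite strand, and these libraries keep no strand.

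**Figure D2:**
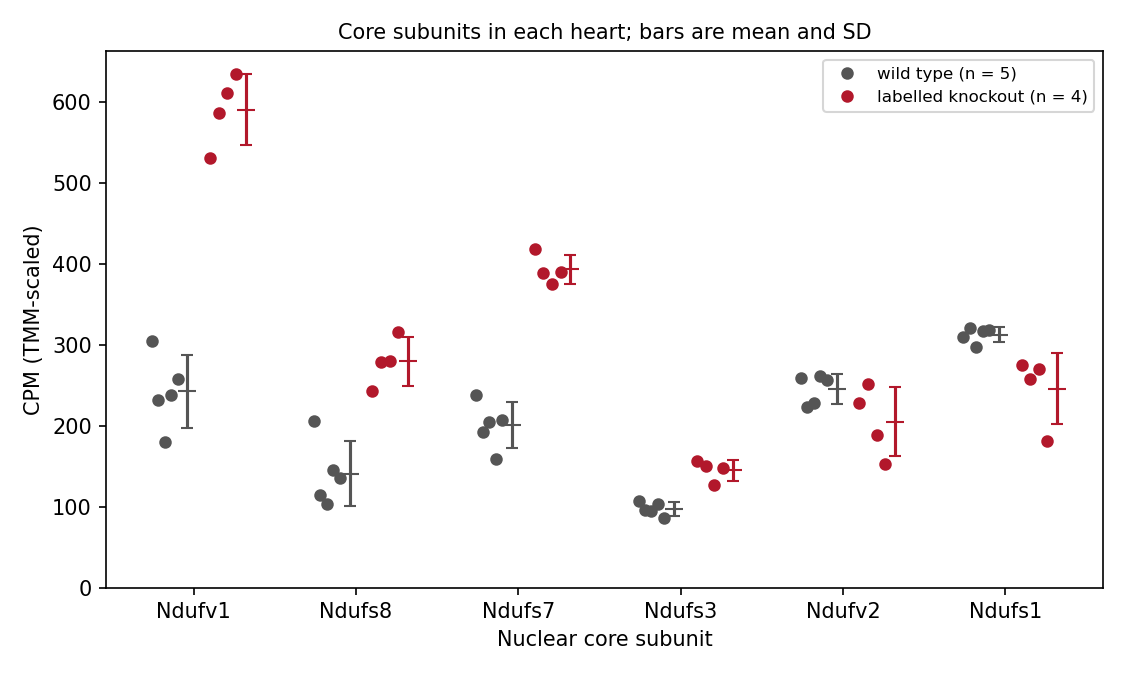
CPM of 6 nuclear core subunits in each heart, with grey points for wild type (n = 5), red points for labelled knockouts (n = 4) and bars for the mean and SD. Ndufv1, Ndufs8, Ndufs7 and Ndufs3 separate upward, Ndufv2 overlaps, and Ndufs1 lies lower in every KO heart, at 181 CPM in KO heart 4.

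Accessory subunits held the largest rises among subunits. Of those described next, Ndufa7, Ndufa11, Ndufa13, Ndufb6 and Ndufb7 share a stretch of at least 100 bases at 90% identity with a transcript of another gene, and exons of Ndufa2, Ndufa11, Ndufa13 and Ndufb6 overlap a counted gene on the opposite strand, so their levels are uncertain to that extent. Ndufa2, a small N module protein with a thioredoxin-like fold, stood at 50.3, 36.4, 36.4, 36.0 and 49.8 CPM in WT and at 146, 139, 148 and 166 in KO hearts. All KO hearts were far above the highest WT heart. The log2 fold change was 1.83 ± 0.14 (edgeR adjusted p = 2.0e-06), and was at 1.45 after trend removal (adjusted p = 9.0e-06). Ndufa7, another N module subunit, was at 67.2, 40.6, 39.1, 39.4 and 52.5 CPM in WT and 141, 157, 142 and 234 in KO hearts, the last value being KO heart 4. It rose by 1.80 ± 0.19 (adjusted p = 8.7e-06), and was at 1.10 after trend removal (adjusted p = 1.5e-04).

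The proximal part of the membrane arm, next to the matrix arm, was the module in which nearly all members rose. Of its 8 tested subunits, 7 rose and none fell, in both fits (26.2% of all genes rose in the first and 18.5% in the second), with medians of 1.20 and 0.68. Ndufa10, a subunit related to nucleoside kinases, was the exception. The other modules were mixed, with 5 of 10 higher and 2 lower in the N module, 4 of 6 higher and none lower in the Q module, and 4 of 10 higher and 1 lower in the distal membrane arm. After trend removal 5 rose and 3 fell in the N module, 1 rose and none fell in the Q module, and 4 rose and 4 fell in the distal arm. Of all genes 25.2% fell in the first fit and 19.4% in the second. The difference between modules was not tested. Module members are not independent samples, since all share the same 9 libraries.

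Among proximal subunits Ndufa11 (chr17:56717762-56724248), a membrane protein at the contact with complex III in respiratory supercomplexes, had the largest fold change on the deposited counts, though not after trend removal. Its CPM was 143, 88.1, 91.5, 74.1 and 105 in WT and 232, 284, 299 and 328 in KO hearts. That is 1.51 ± 0.17 on the log2 scale (edgeR adjusted p = 1.5e-05), and was at 0.64 after trend removal (adjusted p = 0.0016). Ndufa13, also known as GRIM-19, was at 155, 111, 100.1, 134 and 143 CPM in WT and 293, 332, 359.6 and 385 in KO hearts. The groups stood well apart in both genes, and Ndufa13 rose by 1.41 ± 0.14 (adjusted p = 6.9e-06), and was at 0.61 after trend removal (adjusted p = 0.0015).

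Ndufc1 and Ndufc2, small membrane subunits that assemble with mt-Nd2, rose together. Ndufc1 was at 12.6, 13.9, 12.4, 8.22 and 12.8 CPM in WT and 36.1, 29.3, 23.6 and 38.3 in KO hearts, a rise of 1.43 ± 0.18 (edgeR adjusted p = 2.7e-05). Ndufc1 remained at 0.95 after trend removal (adjusted p = 8.8e-04). Ndufc2 (chr7:97400003-97407800) was at 37.7, 21.5, 30.5, 25.1 and 32.7 CPM in WT and 75.2, 70.4, 52.7 and 89.4 in KO hearts. No KO heart reached down to the WT range in either gene. Ndufc2 rose by 1.26 ± 0.17 (adjusted p = 5.1e-05) and barely moved with the trends removed (1.19).

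Ndufa3, Ndufa8 and Ndufa1, which line the proximal arm, rose by 1.14 ± 0.18, 0.82 ± 0.12 and 0.79 ± 0.15 (edgeR adjusted p from 1.1e-04 to 6.9e-04). They were at 0.78, 0.31 and 0.72 after trend removal. Their KO values lay above their WT values in every heart. Ndufa10, by contrast, was at 355, 381, 340.3, 394 and 359.7 CPM in WT and at 379, 380.0, 375 and 309.5 in KO hearts. KO hearts 1 to 3 sat inside the WT range and KO heart 4 below it, and the fold change was -0.020 ± 0.12 (adjusted p = 0.899).

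Ndufs5, an intermembrane-space subunit of the proximal arm, was counted at 0 reads in all 9 hearts although the authors' FPKM table gives it a level. FPKM is reads per kilobase of transcript, scaled to depth. There Ndufs5 stood at 222, 54.7, 58.3, 85.8 and 40.1 in WT and at 418, 497, 481 and 439 in KO hearts. Every KO heart was above every WT heart. The difference on the log2(FPKM + 1) scale was 2.58 (limma adjusted p = 5.4e-04), on a scale where the median gene was itself at 0.44. A processed pseudogene, BC002163 (chr16:42955631-42955949), matches the Ndufs5 transcript at 99.4% identity over 319 bases. That row was counted at 0 to 3 reads per heart, so both rows lack counts, and neither level can be taken as certain.

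The distal membrane arm, at the far end of the proton channels, went both ways. Ndufb6 was at 25.5, 18.4, 19.5, 10.7 and 20.5 CPM in WT and 54.9, 50.04, 55.1 and 81.7 in KO hearts, a rise of 1.67 ± 0.21 (edgeR adjusted p = 2.8e-05) and of 1.63 with the trends removed. It shares exons with the counted gene Smim27 on the opposite strand. Ndufb7, which faces the intermembrane space, was at 147, 134, 125, 101 and 130.2 CPM in WT and 278, 319, 310.4 and 376 in KO hearts. Both genes had separate groups. Ndufb7 rose by 1.33 ± 0.13 (adjusted p = 6.9e-06), and was at 0.40 after trend removal (adjusted p = 0.0050).

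Ndufb5, a distal subunit with a single membrane span at chr3:32737057-32751559, fell. It was at 199, 139, 153, 225 and 172 CPM in WT and at 155, 92.1, 89.3 and 41.2 in KO hearts. KO heart 1 lay inside the WT range and KO heart 4 far below it. The fold change was -0.91 ± 0.27 (edgeR adjusted p = 0.0103), -0.66 without KO heart 4 (adjusted p = 0.014) and -0.85 with the trends removed (adjusted p = 0.0101). It shares exons with the counted gene Mrpl47 on the opposite strand. Ndufb4 and Ndufb10, other distal subunits, lay near 0, at 0.00081 ± 0.12 (adjusted p = 0.997) and 0.10 ± 0.14 (adjusted p = 0.539).

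Ndufb4 ran from 119 to 149 CPM in WT and from 121 to 156 in KO hearts, so the groups overlapped, with KO heart 4 above the highest WT heart. A stretch of 390 bases of its transcript is identical in Ndufb4c, so reads may be shared. Ndufb10 was at 270.2, 400.3, 312, 271 and 334 CPM in WT and 386, 322, 326 and 328 in KO hearts. Its KO values all lay within the WT range. Ndufb10 passed as lower after trend removal (-0.52, adjusted p = 0.016) and Ndufb4 did not (-0.29, adjusted p = 0.066).

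Ndufa6, an N module subunit of the LYR family that binds the acyl carrier protein, fell while the carrier itself rose. Ndufa6 was at 131, 199, 202, 128 and 162 CPM in WT and 145, 110.4, 96.8 and 97.7 in KO hearts. Only KO heart 1 overlapped the WT hearts. The fold change was -0.54 ± 0.17 (edgeR adjusted p = 0.015), and -1.08 with the trends removed (adjusted p = 7.1e-04). The call was lost without KO heart 3 (-0.47, adjusted p = 0.056) and without both shallow WT hearts, 2 and 3 (-0.32, adjusted p = 0.123). Ndufab1, the mitochondrial acyl carrier protein, was at 32.4 to 47.5 CPM in WT and 53.3 to 90.8 in KO hearts. Ndufab1 rose by 0.91 ± 0.16 (edgeR adjusted p = 3.7e-04), and was at 1.34 after trend removal. A transcript of another gene, Gm4459, matches Ndufab1 at 99.8% identity over 468 bases, so its level is uncertain.

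Of the other accessory subunits, Ndufs6, Ndufb8, Ndufa5, Ndufb11 and Ndufs4 rose, by 0.39 to 0.95. Ndufs4, an N module subunit whose loss causes mitochondrial disease, passed only just (0.39 ± 0.16, edgeR adjusted p = 0.046) and lost the call on leaving out any of 6 single hearts, WT 2, 4 or 5 or KO 1, 3 or 4 (adjusted p from 0.0506 to 0.135). Trend removal took it to 0.94 (adjusted p = 4.8e-04). Ndufs6 and Ndufb11 lost their calls there, at 0.26 and 0.23. Ndufb8 was at 0.78 and, after trend removal, at 1.07. Ndufb9, Ndufa9, Ndufb3, Ndufv3, Ndufa12 and Ndufb2 did not pass, with fold changes from -0.25 to 0.24. After trend removal Ndufb3 passed as higher, from 0.16 to 0.42 (edgeR adjusted p = 0.015). Ndufb9 turned from 0.24 to -0.40, Ndufv3 went from -0.12 to -0.62, Ndufa12 from -0.17 to -0.37 and Ndufb2 from -0.25 to -0.88, and these 4 passed as lower (adjusted p from 0.0047 to 0.026).

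**Figure D3:**
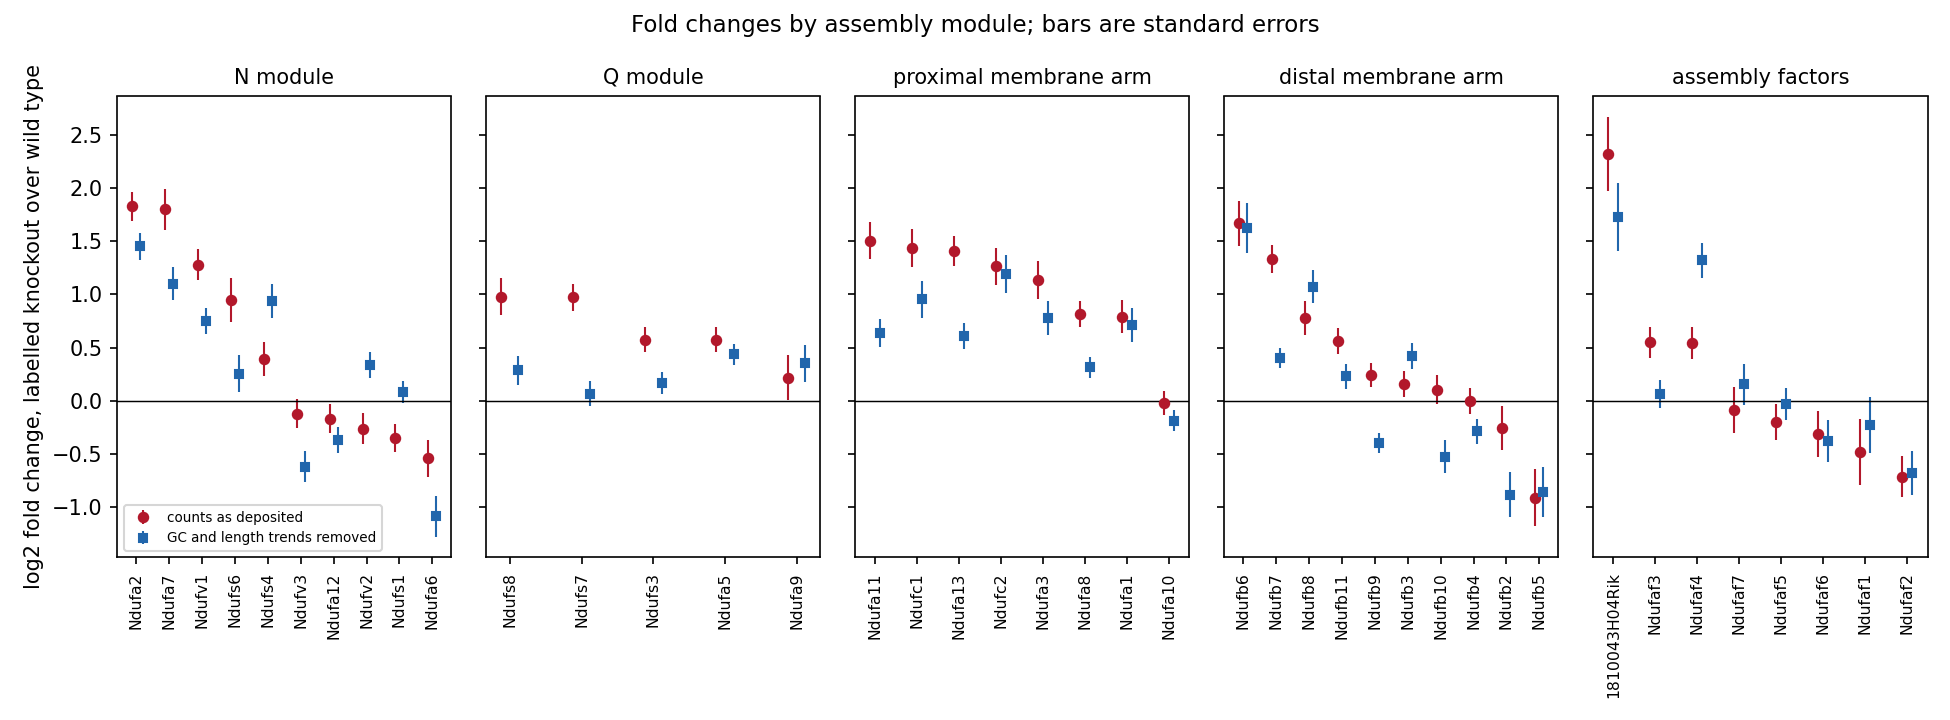
Log2 fold change of labelled knockout over wild type with its standard error, for tested members of 4 assembly modules and for the assembly factors, from counts as deposited (red circles) and with GC and length trends removed (blue squares). In the proximal membrane arm 7 of 8 subunits are above 0 in both, whereas Q module core subunits such as Ndufs7 move from 0.97 to 0.068.

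The largest fold change of any member belonged to an assembly factor. 1810043H04Rik (Ndufaf8, chr11:120098934-120100424) is the partner of Ndufaf5, an enzyme that modifies Ndufs7. It had 107, 11, 1, 19 and 27 reads in WT and 245, 235, 251 and 279 in KO hearts, or 4.797, 3.82, 0.296, 1.33 and 3.13 CPM and 11.6, 14.2, 12.7 and 19.97 CPM. Every KO heart was well above the highest WT heart, while WT heart 3 rested on a single read. The rise was 2.32 ± 0.35 (edgeR adjusted p = 9.4e-05), and was at 1.73 after trend removal (adjusted p = 9.4e-04). Leaving out single hearts gave 2.06 to 2.81. Ndufaf5 itself was at 5.63 to 7.98 CPM in WT and 5.15 to 6.65 in KO hearts, which is -0.20 ± 0.17 and without a call (adjusted p = 0.328).

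Ndufaf3 and Ndufaf4, which act together on the Q module, rose by like amounts. Ndufaf3 was at 14.7, 9.37, 12.1, 11.4 and 10.8 CPM in WT and at 18.7, 16.3, 16.9 and 17.97 in KO hearts. Ndufaf4 was at 14.7, 18.7, 15.7, 12.9 and 18.5 CPM in WT and at 19.5, 22.8, 23.3 and 27.0 in KO hearts. Neither gene's groups overlapped, though the gap was narrow. Their fold changes were 0.55 ± 0.15 (edgeR adjusted p = 0.0058) and 0.54 ± 0.15 (adjusted p = 0.0074). They parted with the trends removed, at 0.066 for Ndufaf3 (adjusted p = 0.727) and 1.32 for Ndufaf4 (adjusted p = 5.8e-05), whose transcripts have 56.0% and 39.5% GC.

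Ndufaf2, a relative of Ndufa12 that holds its place during assembly, was the one assembly factor to fall. Its values were 14.3, 20.8, 24.3, 14.05 and 19.4 CPM in WT and 10.3, 12.6, 8.60 and 12.7 in KO hearts. All KO hearts were below all WT hearts. The fold change was -0.71 ± 0.19 (edgeR adjusted p = 0.0056), close to the -0.68 with the trends removed (adjusted p = 0.017). It kept its call with any single heart left out.

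Ndufaf1, a member of the assembly complex that builds the mt-Nd2 module, varied most among the labelled knockouts. It was at 8.32 to 13.3 CPM in WT and at 16.2, 6.99, 6.42 and 3.79 in KO hearts 1 to 4. KO heart 1 lay above all WT hearts and the other KO hearts below them. At -0.48 ± 0.31 it missed the threshold (edgeR adjusted p = 0.205), and single KO hearts moved it both ways, to -1.03 without KO heart 1 (adjusted p = 0.0012) and to -0.25 without KO heart 4 (adjusted p = 0.470). Ndufaf1 also passed as lower by limma-voom (-0.75, adjusted p = 0.0102), and after trend removal it was at -0.22 (adjusted p = 0.539). Ndufaf6, a factor of early assembly, and Ndufaf7, a protein methyltransferase, stood at -0.31 ± 0.21 and -0.084 ± 0.22 (adjusted p = 0.232 and 0.764). Their WT values of 5.83 to 6.81 and 7.08 to 15.7 CPM overlapped KO values of 3.01 to 6.51 and 7.80 to 13.8.

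Further assembly genes outside the Nduf family were counted in the same way. Of 12 listed, 11 were found in the table, and 6 of these rose and none fell, where 26.2% and 25.2% of all genes did. After trend removal 4 rose and none fell, where 18.5% and 19.4% of all genes did. Ecsit, a scaffold of the complex that builds the mt-Nd2 module, was at 44.7 to 59.5 CPM in WT and 72.5 to 85.9 in KO hearts and rose by 0.63 ± 0.12 (edgeR adjusted p = 5.6e-04), and was at 0.19 after trend removal (adjusted p = 0.142). Timmdc1, its membrane partner, rose by 0.55 ± 0.13 (0.45 with the trends removed). Tmem126a, a factor of the mt-Nd4 module, rose by 0.65 ± 0.21 (adjusted p = 0.017), though not without KO heart 1 (0.52, adjusted p = 0.054) or without both shallow WT hearts (0.47, adjusted p = 0.064). Trend removal took it to 0.95. Foxred1, Tmem186 and Dmac2 (row Atp5sl) rose by 0.35 to 0.43, and Atp5sl lost its call after trend removal (0.12, adjusted p = 0.449). Acad9, Tmem126b, Nubpl, Dmac1 (row 3110001D03Rik) and Aifm1 did not pass, at -0.46 to -0.037.

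Ndufa4 and Ndufa4l2, set apart from complex I proper, did not pass. Ndufa4 was at 352, 353, 328, 374 and 324 CPM in WT and 349.6, 315, 363 and 137 in KO hearts, so KO heart 4 alone stood low. Its fold change was -0.25 ± 0.21 (edgeR adjusted p = 0.339), and -0.0097 without KO heart 4. Ndufa4l2, which hypoxia induces, was at 12.5 to 14.9 CPM in WT and 11.5 to 17.5 in KO hearts (0.088 ± 0.15, adjusted p = 0.643). Ndufa4l2 passed as lower after trend removal (-0.71, adjusted p = 7.1e-04). Its exons overlap those of Shmt2 on the opposite strand.

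KO heart 4 stood at an edge of the KO group in most members. These ranks were counted in members only, and whether other genes differ in this was not tested. KO heart 4 was the highest of the KO hearts in 22 of 45 members and the lowest in 14. Of the 24 members that rose, it was the highest in 18 and the lowest in none, and of the 17 without a call it was the lowest in 12. Members for which it was lowest had a median transcript GC content of 48.0% and a median length of 1448 bases, against 52.0% and 723 bases where it was highest. Its slope of log2 level against GC content was the steepest, 0.66 per 10 percentage points over all genes and 0.59 over members. The other KO hearts had slopes of 0.17 to 0.45 over all genes and 0.15 to 0.30 over members, and WT hearts -0.40 to -0.19 and -0.42 to -0.14. These slopes separate the genotypes, and which part of the fold changes they account for was not tested.

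Across the 45 tested members, which share the same libraries, log2 fold change had a Spearman rho of 0.42 with transcript GC content and -0.33 with transcript length. Over 12548 genes the values were 0.62 and -0.22. Members spanned both ends of the range, from Ndufaf4 at 39.5% GC with a rise of 0.54 to Ndufs7 at 60.7% with a rise of 0.97. Ndufa2 and Ndufb6, which rose in both fits, had 51.7% and 48.4% GC.

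**Figure D4:**
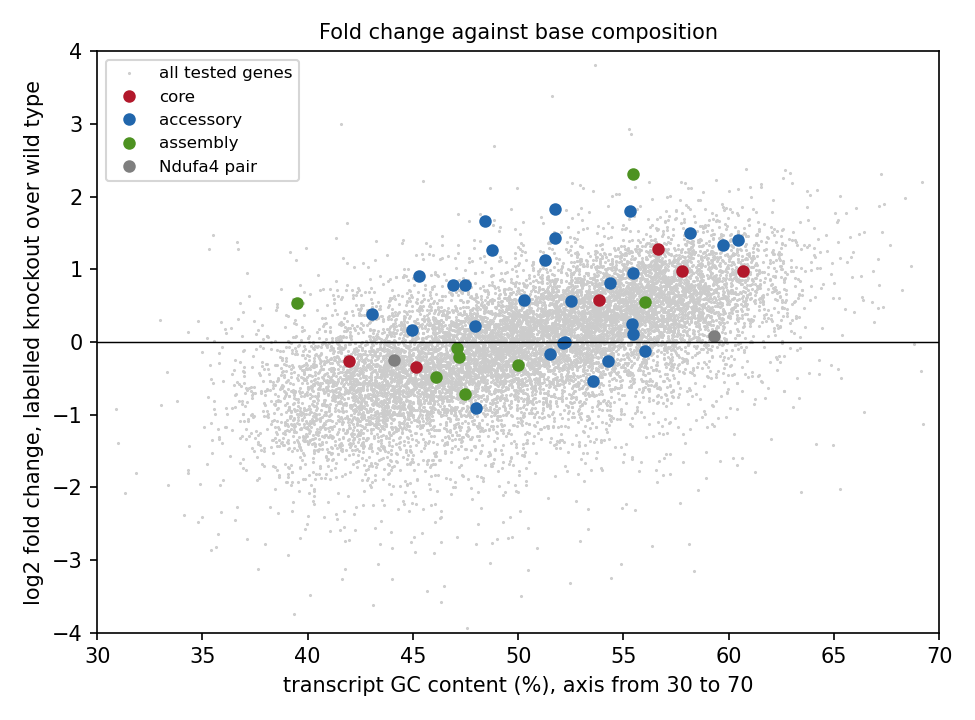
Log2 fold change against transcript GC content for all tested genes (grey, with the axes limited) and for complex I members by class (coloured). Both members and all genes slope upward, with a Spearman rho of 0.42 and 0.62.

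Levels between genes can be compared only per transcript length, for which the authors' FPKM were used. That scale did not follow the counts and the transcript lengths used here. In KO hearts Ndufa3 and Ndufa11 had means of 297 and 286 CPM, with transcripts of 515 and 545 bases. Their mean FPKM were 2449 and 140. The reason was not tested, and the orders given below hold for the FPKM values only. In WT hearts the core subunits had a median of 161 FPKM, with Ndufs1 at 105 ± 23.4 and Ndufs7 at 298 ± 88.2 (SD, n = 5). Ndufs8 stood at 206 ± 103, and Ndufs7 exceeded it in all 5 WT hearts although their SDs overlap. Ndufv2 (161 ± 45.1) likewise exceeded Ndufs1 in all 5 WT hearts, and Ndufv1 (149 ± 55.8) exceeded Ndufv2 in WT heart 1 alone. Accessory subunits spanned a wider range, from 23.6 ± 9.26 for Ndufs4 to 1105 ± 78.0 for Ndufv3, a small N module subunit, with a median of 189. Assembly factors lay far lower, from 2.25 ± 0.574 for Ndufaf5 to 30.8 ± 3.12 for Ndufaf2, with a median of 6.80. Ndufaf2 was the only one of them to exceed the lowest subunit, Ndufs4, in mean level.

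The order by FPKM changed in the labelled knockouts. Ndufa3 headed the accessory subunits at 2449 ± 512 FPKM (SD, n = 4) and Ndufs7 the core subunits at 862 ± 79.2, while Ndufs1 stayed the lowest core subunit at 120.4 ± 27.3. 1810043H04Rik went from 7.78 ± 6.16 FPKM in WT to the top of the assembly factors at 60.6 ± 12.3. By limma on log2(FPKM + 1), 32 of 46 members were higher and none lower (47.2% and 6.09% of 12637 genes). On that scale the median of all genes was itself 0.44, and the members' median was 1.05. Dividing each heart's FPKM by its median gene, a step chosen after seeing the data, brought the calls to 24 higher and 4 lower. Of 12662 genes 25.7% were then higher and 24.0% lower.

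**Figure D5:**
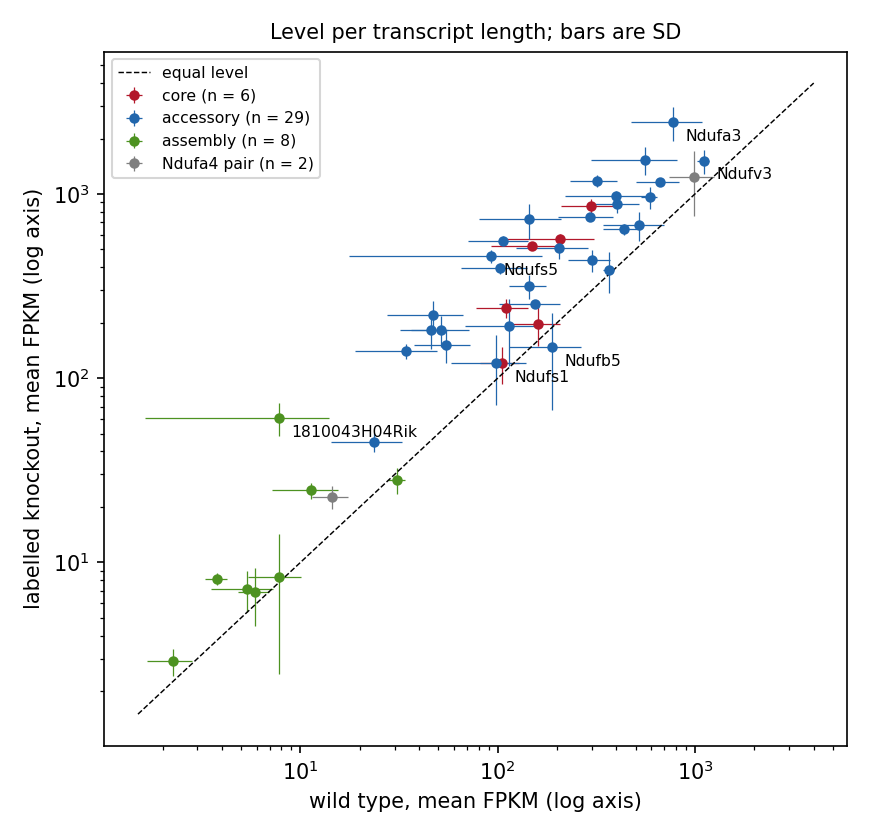
Mean FPKM of 45 members in wild type (horizontal, n = 5) and labelled knockouts (vertical, n = 4) on log axes, with bars for the SD, colours for class and a dashed line at equal level. Assembly factors occupy the low end, from 2.25 FPKM in wild type, and most subunits lie above the line.

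Mitochondrially encoded core subunits went the other way. The libraries keep no strand, so the mt-Nd rows can hold reads of either strand. All 7 rows fell, with a median log2 fold change of -2.65, where 25.2% of all genes fell. With the trends removed 6 of the 7 fell, all but mt-Nd3, where 19.4% of all genes did. The summed CPM of the 7 rows was 74.1 to 341 times that of the nuclear core subunits in WT hearts and 14.6 to 26.5 times in KO hearts. The groups did not overlap. Both shallow WT hearts, 2 and 3, had the highest ratios, 341 and 292.

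Short promoter-side stretches are shown as a description, and their part in the rise of members was not tested. Of 46 members 40 matched a window in RefSeq's promoter table (GRCm38.p6). Each window reaches from 250 bases before the start used for the gene to 50 after it. That start lies inside the gene's RefSeq coordinates for Ndufs7, Ndufa3 and Ndufaf5. The coordinates of Ndufs7 begin at chr10:80249105. Distances below are counted from the start used for the window. The motifs of 3 groups of factors known to act on respiratory genes were searched on both strands: CGCATGCG for NRF1, ACTTCCGG for ETS factors such as GABPA, and AAGATGGC for YY1. The letters of the 3 motifs do not contain one another. At least 1 motif was found in 13 of 40 members (32.5%) and in 9.03% of 27025 genes. NRF1 letters were in 4 of the 40 members and 2.07% of all genes, ETS letters in 1 and 4.31%, and YY1 letters in 8 and 3.19%.

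The NRF1 matches are printed on the gene's strand, 5′ to 3′, with the motif in capitals. Ndufa11, Ndufa8 and Ndufaf4 rose in both fits and Ndufaf5 did not pass in either. The match begins 59, 9 and 112 bases before the start in the first 3 and 17 bases after it in Ndufaf5.
Ndufa11, chr17:56717693-56717720, plus strand: ctgcactgcgCGCATGCGcgcacgcctt
Ndufa8, chr2:36049330-36049357, minus strand: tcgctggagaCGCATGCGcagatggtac
Ndufaf4, chr4:24897961-24897988, plus strand: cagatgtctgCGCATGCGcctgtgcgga
Ndufaf5, chr2:140170653-140170680, plus strand: gtcccgttggCGCATGCGcctaatagaa

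All 8 YY1 matches read forward and lay 10 to 38 bases after the start. In 7 of them the ATG inside the motif is an annotated GENCODE start codon, the exception being 1810043H04Rik. Over all promoters 178 of 567 forward matches (31.4%) were at a start codon. Of these 8 genes 7 rose, all but Ndufa9, and 5 of the 8 rose with the trends removed, all but Ndufa9, Ndufs6 and Ndufs7. Of all 45 tested members 24 rose, and 20 with the trends removed, beside 26.2% and 18.5% of all genes. Whether members with the letters differ from the others was not tested. The capitals mark the motif.
1810043H04Rik, chr11:120098934-120098961, plus strand: ggcagggcccAAGATGGCggcgccctcg
Ndufa3, chr7:3617385-3617412, plus strand: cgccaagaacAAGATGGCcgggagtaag
Ndufc1, chr3:51408916-51408943, minus strand: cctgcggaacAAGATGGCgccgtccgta
Ndufs7, chr10:80249463-80249490, plus strand: ggccgaggccAAGATGGCggcgctggcg
Ndufa9, chr6:126849098-126849125, minus strand: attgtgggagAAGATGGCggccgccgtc
A match describes letters only, and no binding was measured.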

How the data were processed

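The authors deposited a table of raw read counts per gene and a table of FPKM values for the same 9 hearts. Per the submitters' processing notes, the build was mm10 and the tools, given without roles, included HTSeq, Cufflinks 2.1, TopHat2 2.0.10 and TopHat, Bowtie2, and both edgeR and DESeq. Per the labels' protocols the single-end libraries keep no strand. The sources used here name neither the annotation nor the strand setting. Counts were used as deposited with edgeR 4.0.16 (R 4.3.3): TMM, default expression filter (10 reads, 15 in total), quasi-likelihood F tests, no replicate block, Benjamini-Hochberg threshold 0.05. Standard errors came from the F statistic. Each library is labelled as a separate heart, and p-values measure only the spread between these libraries. No pair of hearts held identical values.

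GC content and length were those of 1 GENCODE vM21 transcript per gene and were available for 99.3% of tested genes. Protein-coding transcripts were preferred, then those with a RefSeq link, then the longest. Whether that transcript is the one expressed in these hearts was not tested. Each heart's log2 deviation was smoothed by lowess (span 0.3) against GC content and then length, and the curves served as offsets. This also removes any biological difference that follows either. FPKM were tested with limma 3.58.1 on log2(FPKM + 1) at a mean of at least 0.5, which understates low genes. Copies were sought with blastn 2.17.0 among GENCODE transcripts (at least 90% identity over 100 bases), and coordinates are from RefSeq GRCm38.p6.

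The members, lists and alternatives were chosen with earlier results of these data known. Named were core subunits, assembly factors and the Ndufa4 pair, and among accessory subunits the 8 largest rises, both that fell and the 3 nearest 0, plus up to 3 called genes of other assembly genes. The alternatives were DESeq2 1.42.0, limma-voom, scaling by RLE or by the upper quartile, dropping the filter or asking for a mean of 1 CPM, each heart left out, a replicate block, GC and length trends, no mitochondrial genes or Rn45s, no shallow WT hearts, a threshold of 0.1 and FPKM settings. On simulated counts for 12548 genes (KO over WT, 4 against 5 hearts), edgeR recovered 26.9%, 71.6% and 98.5% of genes changed 1.5-, 2- and 4-fold, with 5.76% of 139 calls being unchanged genes. With the real trends simulated, 96.1% of 3976 calls were unchanged genes, or 6.43% of 140 after their removal. The simulated trends came from the same smoothing that removed them, so their removal was built in. The simulation therefore cannot tell whether the trends of the real libraries are technical. The targeted gene and some results of single genes are not reported here.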

Additional observations from a re-analysis of the deposited data

Results flagged for a closer look

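In 4 of 64 groups checked, 1 heart stood apart from the rest of its group by Dixon's criterion. Chance flags about 1 in 20 groups, or 3.2 here. Ndufb6 was at 81.7 CPM in KO heart 4, where the next KO heart had 55.1. Ndufa10 was at 309.5 CPM in KO heart 4, below the next at 375. Ndufb10 was at 386 CPM in KO heart 1, above the next at 328. Ndufc1 was at 8.22 CPM in WT heart 4, below the next at 12.4.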

How the results depend on the processing

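The count of members that rose stayed within 17 to 32 under all alternatives run, while the share of all genes that rose moved as well. It was 12.4% with the trends and the block, where 17 members rose. In FPKM, where 32 rose, it was 47.2%, or 46.2% with a pseudocount of 0.1 and 33.2% with no filter. All 24 were called again under RLE and upper-quartile factors, both count filters, DESeq2 and limma-voom. Leaving out single hearts gave 23 to 24 higher and 2 to 6 lower, class medians of 0.51 to 0.64 (core), 0.61 to 0.72 (accessory) and -0.24 to -0.044 (assembly). The 4 that fell became 9 with GC and length trends removed, 7 with the trends and the block, 2 without both shallow WT hearts, with or without KO heart 4, and 0 in FPKM with either pseudocount or no filter. Of all genes 19.4% fell with the trends removed and 14.8% with the trends and the block. Without both shallow WT hearts 22.4% fell, or 21.4% without KO heart 4 as well, and in FPKM 4.24% to 6.09% fell. Without both shallow WT hearts and KO heart 4, an alternative chosen after seeing the data, the accessory median was 0.54. With the trends removed the medians were 0.17, 0.41 and 0.019. With the trends and the replicate block together they were 0.13 and 0.395 for core and accessory subunits. In FPKM they were 1.16, 1.39 and 0.33 (1.17, 1.39 and 0.41 with a pseudocount of 0.1), on a scale whose median gene is at 0.44 (0.59).

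The replicate numbers did not pair the hearts: correlations of same-numbered deviations ran from -0.26 to 0.035. The replicate block, with WT heart 5 left out, gave 23 higher and 3 lower, and Ndufs1 lost its call (-0.38, adjusted p = 0.092).

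Direction changed as follows. With the trends removed, and with the block added, Ndufs1 was at 0.085 and 0.088, Ndufv2 at 0.34 and 0.35, Ndufb4 at -0.29 and -0.24, Ndufb10 at -0.52 and -0.49, Ndufa4l2 at -0.71 and -0.74, and Ndufaf7 at 0.15 and 0.012. In FPKM, where all values carry the shift of the median gene, Ndufs1 was at 0.19, Ndufv2 at 0.31, Ndufa6 at 0.050, Ndufa10 at 0.57, Ndufa4 at 0.25, Ndufaf5 at 0.27, Ndufaf6 at 0.17 and Ndufaf7 at 0.39. With a pseudocount of 0.1 Ndufaf5, Ndufaf6 and Ndufaf7 were at 0.37, 0.18 and 0.45, and the others at the same values. Changes near 0 were those of Ndufb4 (-0.0042 at a mean of 1 CPM, -0.037 by limma-voom, -0.027 without both shallow WT hearts, -0.10 without these and KO heart 4, -0.013 in median-centred FPKM), Ndufa10 (0.015 without a filter, 0.012 by limma-voom, 0.032 without the 3 hearts), Ndufa4l2 (-0.0092 by limma-voom) and Ndufaf7 (0.0034 by limma-voom, 0.10 without the 3 hearts). Without single hearts Ndufb4 ranged from -0.078 to 0.046, Ndufa10 from -0.057 to 0.051, Ndufa4l2 from -0.021 to 0.18 and Ndufaf7 from -0.24 to 0.046. The causes were not tested. With 1845431 nuclear reads in the shallowest heart, levels under 1 CPM there rest on 2 reads or fewer.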

Other observations

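Other nuclear respiratory chain genes are given beside complex I as counts, with no test of any difference. Of 4 complex II subunits 2 rose and 1 fell, and of 9 complex III genes 6 rose and 2 fell. Of 16 tested cytochrome oxidase subunits 6 rose and 3 fell. Of 17 rows whose symbol starts with Atp5, taken here as ATP synthase genes, 9 rose and 2 fell. That list also holds Atp5sl (Dmac2), which rose and is counted above among the assembly genes. The median log2 fold changes of the 4 lists were 0.25, 0.53, 0.13 and 0.43, against 0.54 for the complex I members. These stand beside 26.2% of all tested genes that rose and 25.2% that fell. With GC and length trends removed, 1 complex II subunit rose and none fell, 3 complex III genes rose and 2 fell, 4 cytochrome oxidase subunits rose and 5 fell, and 5 ATP synthase genes rose and 3 fell, beside 18.5% and 19.4% of all genes. The medians were then 0.096, 0.055, -0.11 and 0.12, against 0.26, and the 0.12 is the value of Atp5sl itself.

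The pseudogene row that resembles Ndufs5 ran against it in the authors' FPKM table. BC002163 was listed at 152, 334, 338, 351 and 353 FPKM in WT hearts 1 to 5 and at 162, 183, 164 and 176 in KO hearts 1 to 4, and WT heart 1 lay with the labelled knockouts in that row. Ndufs5 was highest among the WT hearts in that same heart, at 222 FPKM. How the 2 rows shared reads was not tested.

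Of the 46 members, 14 share exon bases with another gene of the count table on the opposite strand, and 21 have a stretch of at least 100 bases at 90% identity in a transcript of another gene. Ndufa11 resembles Ndufa11b (94.8% over 424 bases) and Ndufs6 resembles Ndufs6b (96.6% over 348 bases), so the levels of both are uncertain.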
